A study of Bos taurus with 15 samples.

Results

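Keratins are the intermediate filament proteins of epithelia and hair. A filament is built from pairs of an acidic type I and a basic type II keratin, and each epithelium uses its own pairs: KRT8 with KRT18 in simple epithelia, KRT5 with KRT14 in the dividing basal layer of the epidermis, the KRT31 to KRT40 series with the KRT81 to KRT86 series in the hair shaft. In the hair cortex the filaments are embedded in keratin-associated proteins (KRTAP), and the growing shaft is surrounded by an inner root sheath with keratins of its own. Adipocytes, the main cells of fat, build their intermediate filaments chiefly from vimentin.

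The genes described here are all rows of the deposited tables whose name begins with KRT or KRTAP followed by a digit. The rule gave 50 of 13896 genes: 6 hair keratins of type I, 6 hair keratins of type II, 10 keratin-associated proteins, 9 keratins of the inner root sheath and companion layer, 13 keratins of the epidermis and other stratified epithelia, 5 keratins of simple epithelia, and KRT222. The rule used names only, no measured value. The tissue was subcutaneous fat of primiparous Holstein cows, cut from the dewlap under the neck through an incision in shaved, washed skin. RNA was sequenced after removal of ribosomal RNA, in 15 libraries that form 5 groups of 3. The -4 wkpp group (weeks peripartum) was sampled before the experimental diets began. The SNEB groups (severe negative energy balance) were fed the low energy diet LE from then on and were sampled at 1 and 16 wkpp, and the MNEB groups (moderate negative energy balance) were fed the high energy diet HE and were sampled at the same times. The study took 3 cows per energy balance group, those with the most extreme balance at 1 wkpp, and the labels used here do not tie libraries to cows, so that p-values measure the spread between these libraries.

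Whole reads of every library were recovered from the deposited means for 13892 genes, all 50 keratin rows included. Reads on exons totalled 8149322 to 14110208 per library at -4 wkpp, 10983602 to 14674434 in the SNEB groups and 2027323 to 7517203 in the MNEB groups. Diet and exonic yield therefore cannot be told apart. The study lists similar total reads for all groups, with a lower share aligned uniquely in the MNEB libraries. The libraries of a group are numbered by decreasing exonic total, and these numbers are not those of the labels. In 5 libraries, namely -4 wkpp library 3, SNEB 16 wkpp library 1, MNEB 1 wkpp libraries 2 and 3 and MNEB 16 wkpp library 1, 12520 to 13126 genes had at least 1 exonic read, against 11182 to 12207 in the other 10. The adipocyte markers FABP4 and PLIN1 were present in all 15 libraries, from 1274 reads of FABP4 and 1105 of PLIN1 in MNEB 16 wkpp library 3 upward. In bulk tissue, fewer cells of a type and less RNA per cell cannot be told apart.

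**Figure D1:**
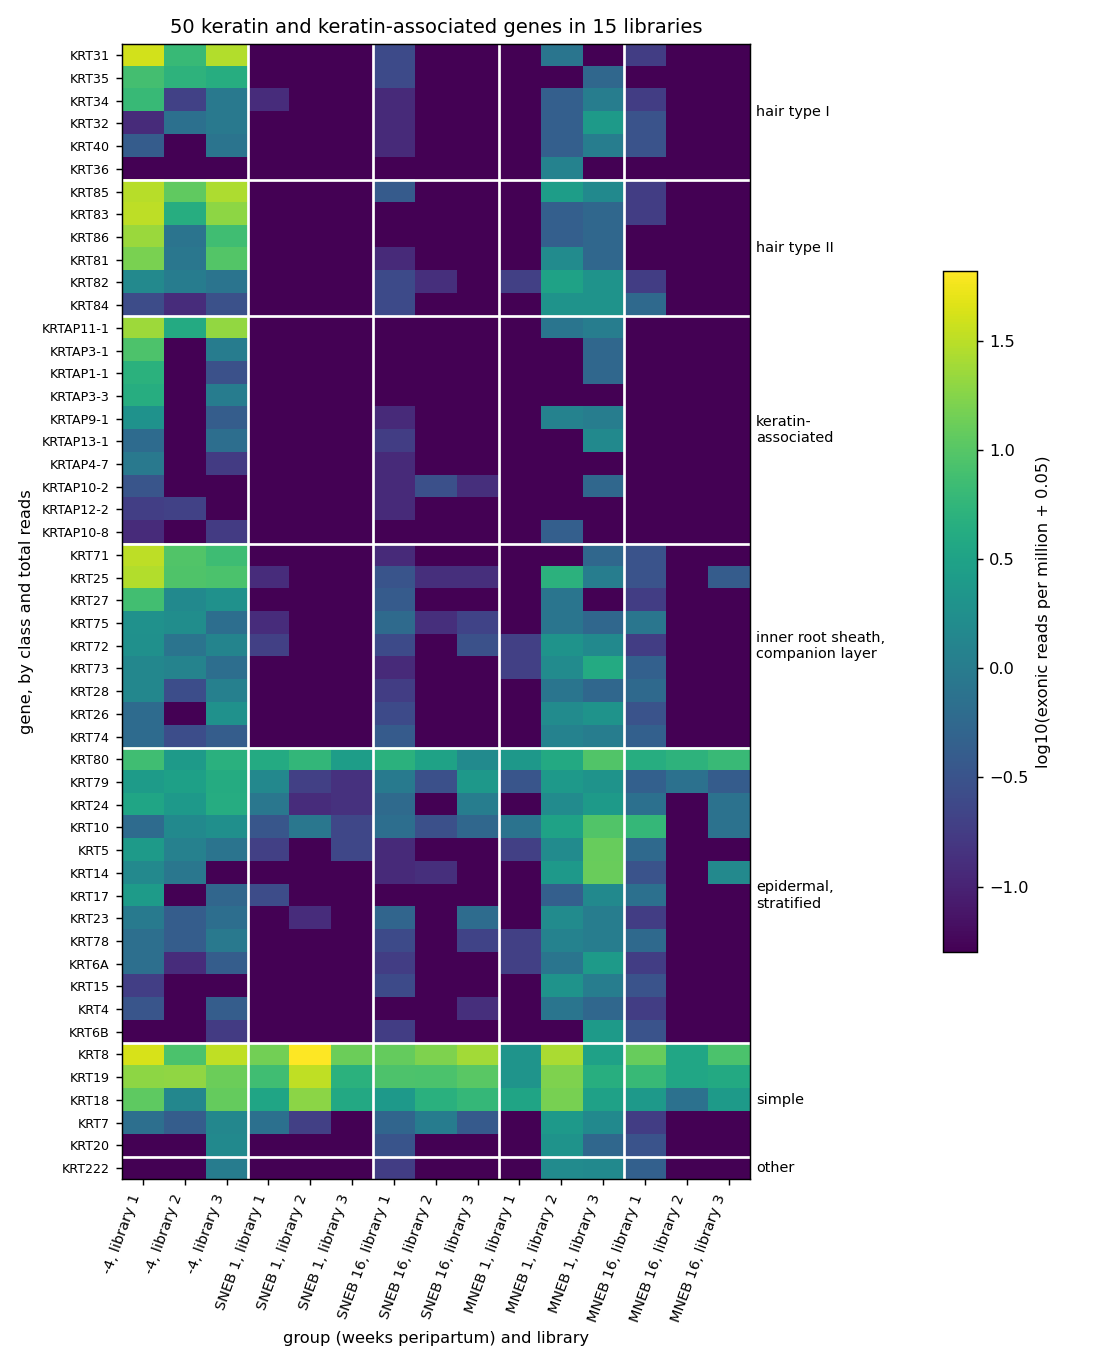
Exonic reads per 1000000 exonic reads of the library (RPM, log10 after adding 0.05) of the 50 keratin and keratin-associated genes (rows, by class and total reads) in the 15 libraries (columns, 3 per group). The well covered hair and root sheath genes, such as KRT31, KRT83, KRT85, KRT71 and KRT25, are brightest in the 3 libraries at -4 wkpp, low ones such as KRT73, KRT82, KRT84 and KRT32 peak in an MNEB 1 wkpp library, and KRT8, KRT18, KRT19 and KRT80 have reads in every library.

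The type II hair keratin KRT85, an early keratin of the hair matrix and precortex, had 434, 152 and 220 exonic reads in the -4 wkpp libraries 1, 2 and 3. It had 0 reads in all 3 SNEB 1 wkpp libraries, 5, 0 and 0 at SNEB 16 wkpp, 0, 7 and 3 at MNEB 1 wkpp and 1, 0 and 0 at MNEB 16 wkpp. Every -4 wkpp library stood above all 12 later libraries. After division by the size factor of each library (normalised reads), KRT85 averaged 183 ± 80.9 (SD, n = 3) at -4 wkpp and 9.98 ± 9.50 (SD, n = 3) at MNEB 1 wkpp. Pooled over the group, KRT85 was at least 312-fold higher at -4 wkpp than at SNEB 1 wkpp, a bound set by 3 reads over the 3 later libraries.

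KRT83 and KRT86, type II keratins of the middle cortex, followed the same division. KRT83 had 457, 58 and 160 exonic reads at -4 wkpp and 3 reads in the 12 later libraries together. KRT86 had 314, 10 and 59 reads at -4 wkpp and 2 later. KRT81, also of the cortex, had 216, 11 and 78 reads at -4 wkpp and 6 later, but its -4 wkpp library 2 lay below 1 of the MNEB 1 wkpp libraries after normalisation (6.72 against 10.8 normalised reads). KRT82, a cuticle keratin, was low, with 20, 13 and 6 reads at -4 wkpp and 18 later. KRT84 had 6 reads at -4 wkpp and 16 in the later libraries.

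Among the type I hair keratins, KRT31 of the cortex had 563, 84 and 236 exonic reads at -4 wkpp, 0 in each SNEB 1 wkpp library and 6 in the 12 later libraries together. Its normalised reads averaged 199 ± 138 (SD, n = 3) at -4 wkpp, and it was at least 342-fold higher there than at SNEB 1 wkpp on the same bound. KRT35, like KRT85 an early keratin of the matrix and precortex, had 109, 69 and 35 reads at -4 wkpp and 4 later, 3 of them in SNEB 16 wkpp library 1. Its normalised reads, 45.9 ± 15.4 (SD, n = 3) at -4 wkpp, had the smallest SD relative to the mean among the 9 hair follicle genes that averaged at least 10 exonic reads per library. KRT34 had 88, 2 and 7 reads at -4 wkpp, almost all in library 1. KRT32 and KRT40 had 17 and 11 reads at -4 wkpp, and KRT36 had 0 there and 3 in MNEB 1 wkpp library 2.

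A further keratin of this series is listed in the tables by a gene number, LOC618455, which RefSeq (ARS-UCD2.0) names KRT33B. It does not meet the naming rule and was picked out after its values were seen. It had 252, 31 and 83 exonic reads at -4 wkpp and 0 in the 12 later libraries. LOC787225, which RefSeq names KRTAP2-1, had 22, 0 and 1 reads at -4 wkpp and 0 later.

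Of the 10 keratin-associated proteins, KRTAP11-1 was best covered. It had 323, 54 and 169 exonic reads at -4 wkpp and 4 later, all of them in the MNEB 1 wkpp libraries 2 and 3. KRTAP3-1, KRTAP3-3 and KRTAP1-1 had 126, 62 and 69 reads in -4 wkpp library 1. All 3 genes had 0 reads in library 2, and they had 8, 8 and 2 reads in library 3. The other 6 had 2 to 30 reads at -4 wkpp and 1 to 6 later. All 10 were at 0 in the 3 SNEB 1 wkpp libraries.

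KRT71 and KRT25 pair in the inner root sheath, the sleeve that moulds the growing hair. KRT71 had 456, 125 and 57 exonic reads at -4 wkpp and 4 later, and KRT25 had 400, 124 and 69 at -4 wkpp and 25 later. Of these 25 later reads of KRT25, 13 were in MNEB 1 wkpp library 2. KRT27 had 106, 20 and 15 reads at -4 wkpp and 8 later. The other 6 keratins of this class were low: KRT75 of the companion layer had 53 reads at -4 wkpp and 21 later, and KRT26, KRT28, KRT72, KRT73 and KRT74 had 14 to 45 at -4 wkpp and 9 to 18 later.

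**Figure D2:**
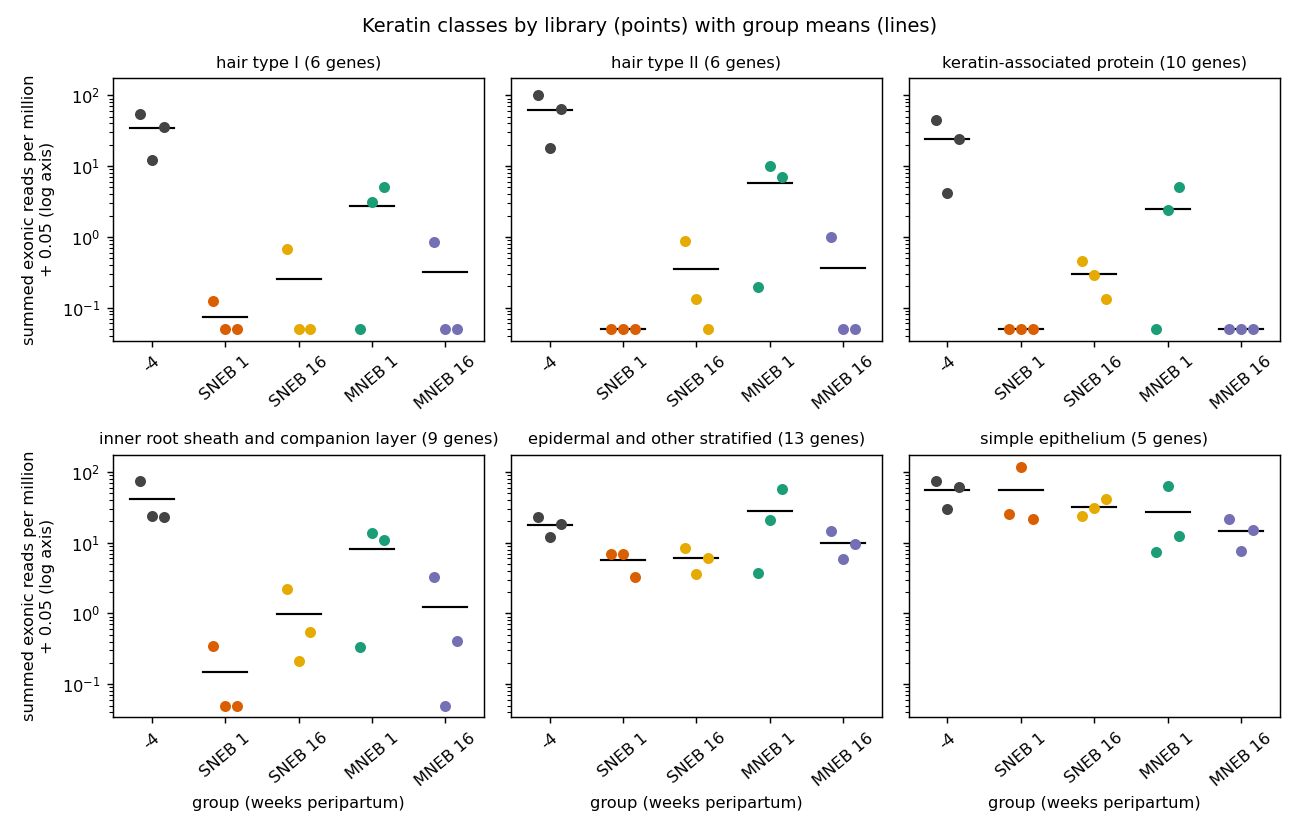
Summed exonic RPM (log axis, after adding 0.05) of 6 keratin classes in each library (points), with group means (lines). The 3 -4 wkpp libraries hold 12.2 to 54.3 RPM of type I and 18.2 to 102 of type II hair keratins, above every later library, while the simple epithelium class overlaps between groups.

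Summed over a class, type I hair keratins had 54.3, 12.2 and 35.7 RPM in the -4 wkpp libraries and at most 4.93 in any later library. Type II hair keratins had 102, 18.2 and 64.4 RPM at -4 wkpp and at most 10.0 later. The -4 wkpp libraries held 97.3% of all exonic reads of the type I hair keratins, 97.3% of those of type II, 97.2% of those of the keratin-associated proteins and 92.5% of those of the root sheath class. The same share was 43.6% for the epidermal class and 33.5% for the simple epithelium class. These shares are of raw reads and carry the differences in depth between libraries.

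The 3 -4 wkpp libraries lay above all 12 later libraries in normalised exonic reads for 11 of the 50 genes, or 22%: KRT31, KRT35, KRT83, KRT85, KRT86, KRTAP11-1, KRT25, KRT27, KRT71, KRT24 and KRT79. Over all 13892 genes this held for 2.81%. Against SNEB 1 wkpp alone it held for 25 of the 50 genes, beside 9.49% of all genes. Against MNEB 1 wkpp alone it held for the same 11 genes, beside 18.1% of all genes, and the share of keratins was near the background there. Without the 5 libraries with the most genes detected, a choice made after seeing the data, the remaining 2 libraries at -4 wkpp lay above the remaining 8 later ones for 24 of the 50 genes, beside 6.18% of all genes. The comparisons of SNEB 1 wkpp and MNEB 1 wkpp with -4 wkpp share the -4 wkpp libraries.

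The question of which transcripts changed from before to after calving was tested with limma (voom weights) on exonic and on whole gene reads. A gene counted as changed when both analyses gave a Benjamini-Hochberg adjusted p under 0.01 and the same direction. No keratin met this. For -4 wkpp against SNEB 1 wkpp, 0 of the 31 keratins tested passed, beside 0.0363% of 11024 genes. At an unadjusted p below 0.05 in both limma analyses there were 19 of the 31, all higher at -4 wkpp, beside 9.61% of genes. Many of these genes passed the filter on low values only through their -4 wkpp reads. For -4 wkpp against MNEB 1 wkpp, 0 of 32 keratins passed, beside 1.51% of 10992 genes, and 3 of the 32 had an unadjusted p below 0.05 in both analyses by limma, beside 24.2% of genes, so that the keratins lay below the background there.

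**Figure D3:**
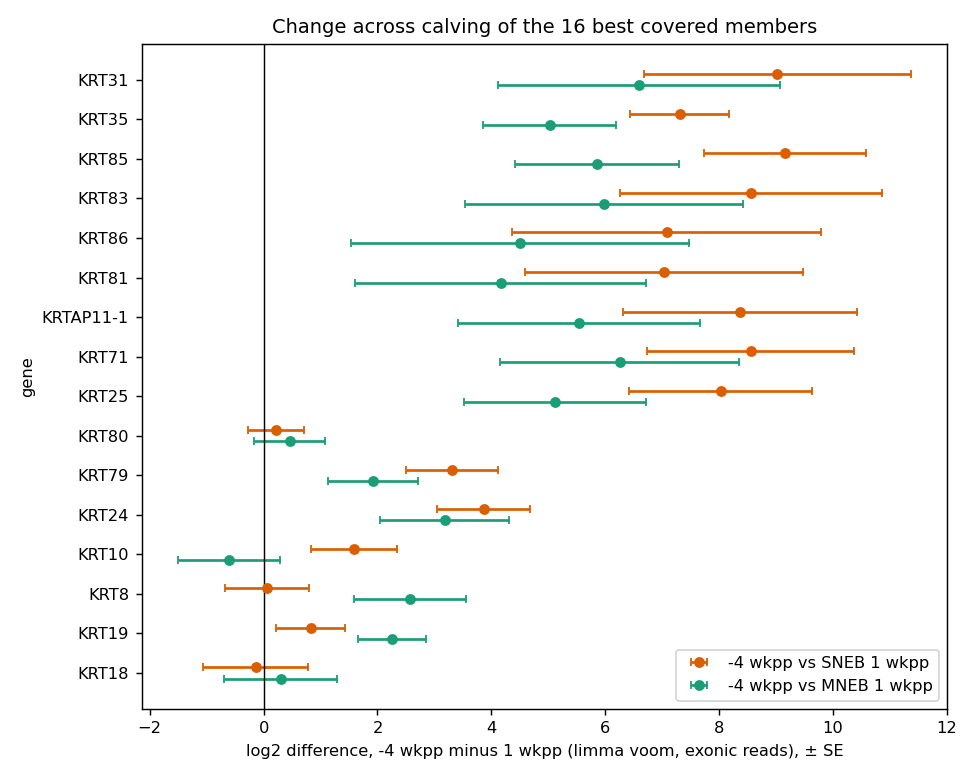
Log2 difference in exonic reads (-4 wkpp minus 1 wkpp, limma voom estimate ± SE) of the 16 genes with a mean of at least 10 exonic reads per library, against SNEB 1 wkpp and against MNEB 1 wkpp. The 9 hair follicle genes sit between 7.03 and 9.16 against SNEB and between 4.16 and 6.59 against MNEB, and KRT80 and KRT18 have intervals that include 0 in both.

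KRT35 came closest. Its log2 difference between -4 wkpp and SNEB 1 wkpp was 7.31 ± 0.87 (SE) on exonic reads, with a limma adjusted p of 0.00688, and 7.31 ± 1.27 on whole gene reads, with a limma adjusted p of 0.0596. It was the only keratin past the threshold on exonic reads alone, beside 0.483% of genes. Against MNEB 1 wkpp its log2 difference was 5.02 ± 1.16 (SE) with a limma adjusted p of 0.00954 on exonic reads and 0.164 on whole gene reads. It was again the only keratin past the threshold on exonic reads alone, where 15.3% of all genes passed. With all 15 libraries in one limma fit KRT35 passed in both analyses against MNEB 1 wkpp, beside 9.7% of genes. KRT35 had 0 exonic reads over the SNEB 1 wkpp libraries and 1 over the MNEB 1 wkpp libraries. It passed the filter on low values only through its -4 wkpp reads, so these passes support nothing further.

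KRT85 differed by 9.16 ± 1.43 (log2, SE) between -4 wkpp and SNEB 1 wkpp on exonic reads, with limma adjusted p of 0.0196 on exonic and 0.0877 on whole gene reads. Against MNEB 1 wkpp the log2 difference was 5.85 ± 1.44 (limma adjusted p = 0.0127 exonic, 0.155 whole gene). Without MNEB 1 wkpp library 1 its log2 difference was 3.38. Leaving out the same library took KRT25 from 5.12 to 2.51, KRT81 from 4.16 to 2.23, KRTAP11-1 from 5.53 to 3.68, KRT24 from 3.18 to 0.77 and KRT79 from 1.93 to 0.56. KRT31 had a larger standard error, 9.02 ± 2.34 against SNEB 1 wkpp, and a limma adjusted p of 0.104 on exonic reads. Fitted differences of genes with 0 reads in a group depend on the small value that voom adds to each count and are no bounds.

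The form of the limma fit mattered for these genes. The alternative changed the weights, the point at which a small value was added and the variance model together. With limma on log2 normalised values and a trend in place of voom weights, 6 keratins passed in both analyses for -4 wkpp against SNEB 1 wkpp, all higher at -4 wkpp: KRT25, KRT31, KRT71, KRT83, KRT85 and KRTAP11-1. In that fit 0.209% of all genes passed. These 6 had 0 or 1 exonic reads over the SNEB 1 wkpp libraries and passed the filter on low values through their -4 wkpp reads, so their count supports nothing further. KRT35 was not among the 6.

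The 3 -4 wkpp libraries differed among themselves, and not by the same factor for every gene. As RPM, KRT35 in library 2 was at 66.2% of library 1 (95% counting interval 48.2 to 90.3), KRT85 at 36.6% (30.2 to 44.1), KRT31 at 15.6% (12.3 to 19.6), KRT83 at 13.3% (9.92 to 17.5), KRT81 at 5.32% (2.62 to 9.72), KRT86 at 3.33% (1.58 to 6.21) and KRT34 at 2.38% (0.283 to 8.84). KRTAP3-1 was at 0 reads in library 2, which allowed up to 3.11%. In a growing hair KRT35 and KRT85 are switched on first, in the matrix and precortex, KRT31, KRT83, KRT86 and KRT81 follow in the cortex, and KRT34 and many keratin-associated proteins come later. In library 2 KRT35 and KRT85 stood above the cortex keratins, with intervals that did not overlap theirs. KRT34 could not be separated from KRT81 and KRT86, whose values its interval covers, and KRTAP11-1, at 17.5% (12.9 to 23.4), overlapped with KRT31 in its interval. The comparison was drawn up after the values were seen. It took the 14 hair, root sheath and keratin-associated genes with at least 60 reads over the 3 -4 wkpp libraries together. The epidermal and simple epithelium classes were left out. Among these, KRT8 had 42.6 RPM in library 1 and 8.67 in library 2, KRT18 11.1 and 1.33, KRT80 7.16 and 2.45, and KRT19 19.6 and 19.9. The root sheath keratins KRT25, KRT71 and KRT27 lay at 32.4%, 28.7% and 19.7% of library 1.

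**Figure D4:**
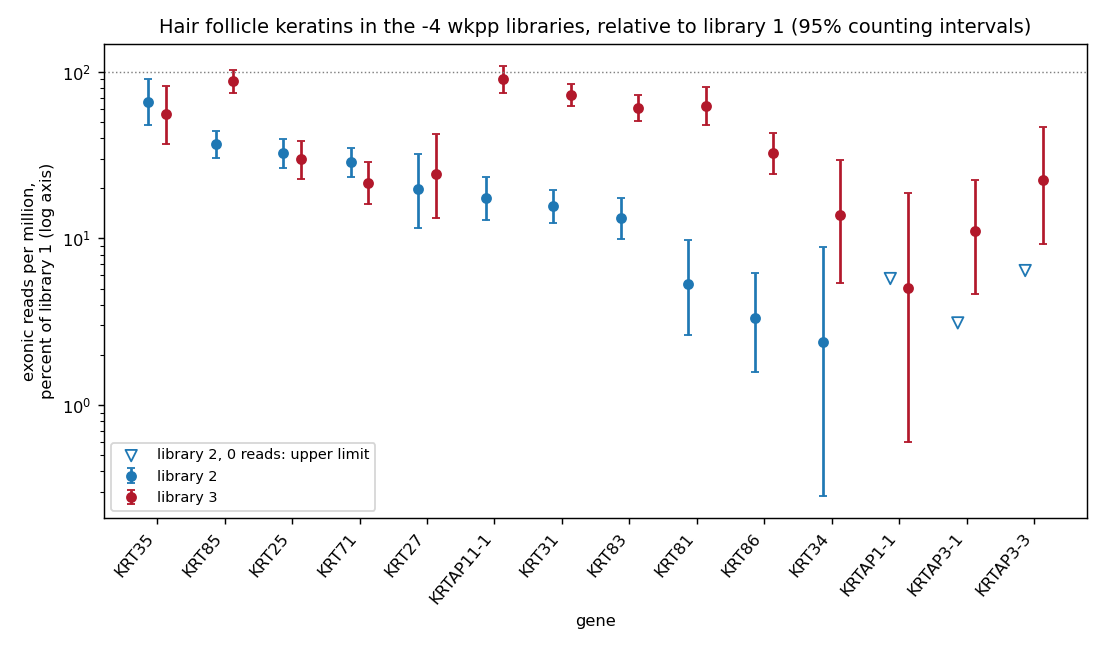
Exonic RPM of 14 hair follicle genes in -4 wkpp libraries 2 and 3 as a percentage of library 1 (log axis, 95% counting intervals, genes in the order of library 2). Open triangles mark the upper limit where library 2 had 0 reads. Library 2 falls from 66.2% for KRT35 to 2.38% for KRT34, while library 3 stays between 55.6% and 90.6% for KRT35, KRT85, KRTAP11-1, KRT31, KRT83 and KRT81 and stands at 32.5% for KRT86.

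In library 3 the order was not the same. KRT85 stood at 87.8% of library 1 (74.3 to 103), KRTAP11-1 at 90.6% (74.8 to 109) and KRT31 at 72.6% (62.1 to 84.6), beside KRT35 at 55.6% (36.9 to 82.0), whose interval overlaps all 3. The root sheath keratins were lower, KRT71 at 21.6% (16.1 to 28.6) and KRT25 at 29.9% (22.8 to 38.6). KRT86 was at 32.5% (24.2 to 43.1), below the other cortex keratins KRT31, KRT83 and KRT81. KRT34 was at 13.8% (5.38 to 29.6) and KRTAP3-1 at 11.0% (4.64 to 22.3). These intervals cover counting error only, and each ratio is between single libraries.

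The share of hair follicle keratin reads that lay on exons varied between libraries. For the 21 hair, inner root sheath and companion layer keratins, 4.6%, 2.5% and 21.3% of whole gene reads lay off the exons in -4 wkpp libraries 1, 2 and 3. In the 4 later libraries with more than 10 exonic reads of these genes, the share was 71.6% and 78.5% (MNEB 1 wkpp libraries 2 and 3), 73.2% (SNEB 16 wkpp library 1) and 73.0% (MNEB 16 wkpp library 1). In the 4 later libraries with 3 to 6 exonic reads, 3 of 8 whole gene reads (SNEB 1 wkpp library 1), 1 of 4 and 2 of 8 (SNEB 16 wkpp libraries 2 and 3) and 4 of 7 (MNEB 1 wkpp library 1) lay off the exons. The 4 libraries with more than 10 exonic reads and -4 wkpp library 3 are the 5 with the most genes detected. In them 36 to 45 of the 50 keratin genes had an exonic read, against 5 to 15 in the other 8 later libraries. KRT85 in MNEB 1 wkpp libraries 2 and 3 had 7 and 3 exonic reads beside 29 and 30 whole gene reads. The part of these mostly off-exon reads in the comparisons with MNEB 1 wkpp was not tested.

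**Figure D5:**
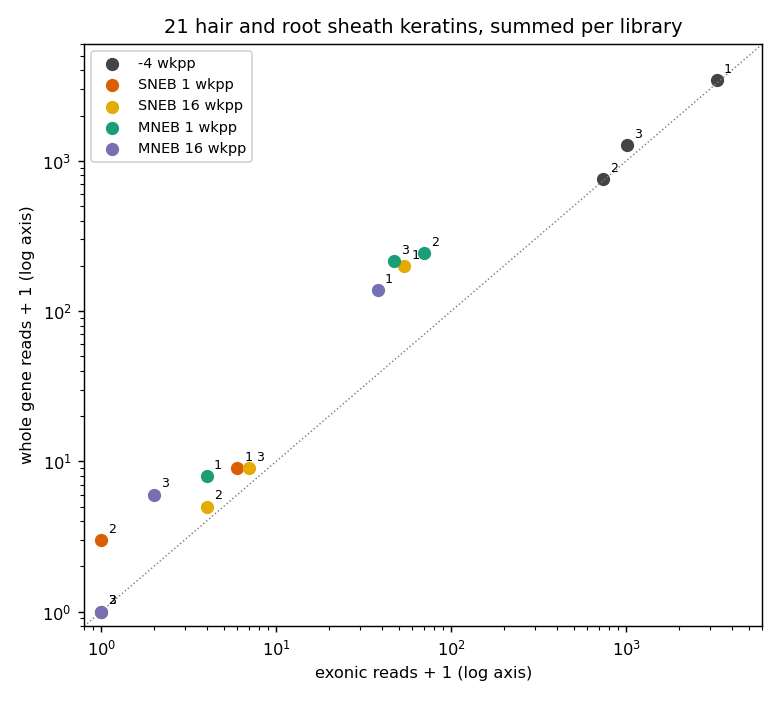
Exonic reads (x) and whole gene reads (y, both log axes after adding 1) summed over 21 hair and root sheath keratins, 1 point per library with its number; the dotted line marks equal values and SNEB 1 wkpp library 3 and MNEB 16 wkpp library 2 share the point for 0 reads. The -4 wkpp libraries lie near the line, and 4 later libraries with 37 to 69 exonic reads lie above it at 137 to 243 whole gene reads.

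In sum, the keratins of the epidermis and other stratified epithelia lay above SNEB 1 wkpp at -4 wkpp and overlapped with MNEB 1 wkpp. Their summed level was 11.9 to 22.8 RPM at -4 wkpp, 3.19 to 6.94 at SNEB 1 wkpp with no overlap, and 3.71 to 58.2 at MNEB 1 wkpp, on both sides of the -4 wkpp libraries. Of the 13 genes, KRT5, KRT6A, KRT23, KRT24, KRT78 and KRT79 had every -4 wkpp library above every SNEB 1 wkpp library, beside 9.49% of all genes. On normalised reads KRT79 and KRT24 were higher in all 3 -4 wkpp libraries than in any later library, KRT24 narrowly (18.9 against 18.4 normalised reads). In RPM KRT24 overlapped, with 2.30 in -4 wkpp library 2 and 2.47 in MNEB 1 wkpp library 3. KRT79 had 36, 39 and 33 exonic reads at -4 wkpp and averaged 25.1 ± 5.18 normalised reads there (SD, n = 3), against 4.12 ± 5.64 at SNEB 1 wkpp. KRT24 had 48, 31 and 34 reads at -4 wkpp, 11, 1 and 1 at SNEB 1 wkpp and 0, 4 and 5 at MNEB 1 wkpp. Their limma log2 differences between -4 wkpp and SNEB 1 wkpp were 3.30 ± 0.81 and 3.86 ± 0.81 (SE), with limma adjusted p of 0.0913 and 0.0591 on exonic reads.

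KRT14 and KRT5, the pair of the basal layer of the epidermis, were highest after normalisation in MNEB 1 wkpp library 3. KRT14 had 26 reads there, 6 and 0 in the other MNEB 1 wkpp libraries, 20, 11 and 0 at -4 wkpp and 0 in each SNEB 1 wkpp library. KRT5 had 1, 4 and 25 reads at MNEB 1 wkpp, 35, 15 and 6 at -4 wkpp and 2, 0 and 2 at SNEB 1 wkpp. Its normalised reads reached 91.9 in MNEB 1 wkpp library 3 and at most 20.1 at -4 wkpp. On normalised reads, KRT14 reached 95.6 in MNEB 1 wkpp library 3 and at most 11.5 in any -4 wkpp library. The same library held 3 reads of KRT85 and 0 of KRT31. The log2 difference of KRT14 between SNEB 1 wkpp and MNEB 1 wkpp was -3.92 ± 2.22 (SE, limma adjusted p = 0.262). Without MNEB 1 wkpp library 1, where KRT14 had 0 reads, it was -7.00 with a limma adjusted p of 0.00753, passing in both analyses. With 0 reads at SNEB 1 wkpp, KRT14 passed the filter on low values only through its MNEB 1 wkpp reads. That pass therefore supports nothing further, and no share of all genes is given for that fit. For KRT5 the log2 difference between these groups was -3.02 ± 1.76 (SE, limma adjusted p = 0.273 exonic, 0.460 whole gene). KRT14 and KRT5 are named outside the rule for named genes, KRT14 because of its value without MNEB 1 wkpp library 1.

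KRT10, of the upper layers of the epidermis, had 45 reads in MNEB 16 wkpp library 1, 19 in MNEB 1 wkpp library 3 and 0 to 20 elsewhere. KRT17, an injury and outer root sheath keratin, had 36 of its 52 reads in -4 wkpp library 1. KRT80 had reads in every library, from 10 to 101, and 56.9% of its whole gene reads lay off the exons. Its log2 difference from -4 wkpp was 0.23 ± 0.49 at SNEB 1 wkpp and 0.46 ± 0.63 at MNEB 1 wkpp (SE), with limma adjusted p of 0.881 and 0.618. The other 6 of this class, KRT4, KRT6A, KRT6B, KRT15, KRT23 and KRT78, had 1 to 23 reads at -4 wkpp and 5 to 22 later, and KRT222 had 8 reads at -4 wkpp and 12 later.

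The simple epithelium keratins KRT8, KRT18 and KRT19 had reads in all 15 libraries. KRT8 had 601, 117 and 269 exonic reads at -4 wkpp, 196, 891 and 142 at SNEB 1 wkpp, 177, 206 and 294 at SNEB 16 wkpp, 14, 69 and 6 at MNEB 1 wkpp and 92, 10 and 24 at MNEB 16 wkpp. SNEB 1 wkpp library 2 held the highest normalised level of all 3 genes (482 for KRT8, 240 for KRT19 and 136 for KRT18). The log2 values of KRT8 followed those of its partner KRT18 (Pearson r = 0.78) and of KRT19 (r = 0.85) over the 15 libraries, as a description that also carries differences between groups. For KRT8 and KRT85 the same measure was 0.29.

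Between -4 wkpp and SNEB 1 wkpp, KRT8 differed by 0.06 ± 0.74 and KRT18 by -0.14 ± 0.93 (log2, SE), with limma adjusted p of 0.983 and 0.964, and both groups overlapped. The sign of both differences turned when single libraries were left out. Against MNEB 1 wkpp, KRT19 was higher at -4 wkpp by 2.26 ± 0.60 (limma adjusted p = 0.0173 exonic, 0.177 whole gene) and KRT8 by 2.57 ± 0.99 (limma adjusted p = 0.0750 exonic). Without MNEB 1 wkpp library 1 these differences were 1.066 (limma adjusted p = 0.188) and 1.302 (limma adjusted p = 0.404). KRT7 and KRT20 had 69 and 24 exonic reads in all, with 56.3% and 80.2% of whole gene reads off the exons.

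After calving no keratin differed past the threshold. From 1 to 16 wkpp, 0 of 8 keratins tested passed in the SNEB cows and 0 of 7 in the MNEB cows, in comparisons where limma called 0% of all genes, and 0 of each had an unadjusted p below 0.05 in both analyses, beside 4.41% and 7.54% of genes. Groups did not overlap for 3 and 4 of the 50 genes, beside 10.4% and 16.4% of all genes. Between SNEB and MNEB at 1 wkpp, 0 of 8 keratins passed limma, as did 0% of genes, and 0 had an unadjusted p below 0.05 in both analyses, beside 17.9% of genes. There 4 of the 50 genes did not overlap, all of them lower at SNEB 1 wkpp, beside 32.3% of all genes. At 16 wkpp, 0 of 6 passed beside 3.51% of genes, 0 had an unadjusted p below 0.05 in both limma analyses beside 25.1% of genes, and 4 of the 50 did not overlap beside 34.5% of all genes. KRT19 had 128, 105 and 128 reads at SNEB 16 wkpp and 47, 10 and 11 at MNEB 16 wkpp, and differed by 0.95 ± 0.35 (log2, SE, limma adjusted p = 0.0778), while KRT8 differed by 1.06 ± 0.48 (limma adjusted p = 0.146). On leaving out single libraries these differences ranged from 0.804 to 1.296 for KRT19 and from 0.66 to 1.625 for KRT8. The change from 1 to 16 wkpp did not differ between SNEB and MNEB past the limma threshold for any of the 6 keratins tested or for any gene (0%), and 0 of the 6 had an unadjusted p below 0.05 in both analyses, beside 2.7% of genes.

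By the order of genes in RefSeq (ARS-UCD2.0), where all 50 names were found, KRT82, KRT84, KRT85, KRT83, KRT86 and KRT81 follow each other with only KRT89 between KRT85 and KRT83, and KRT71 borders KRT5. KRT71 had 638 exonic reads at -4 wkpp and 4 later, while its neighbour KRT5 had 56 and 39. KRT25 lies between KRT24 and KRT26, which had 113 and 23 reads at -4 wkpp beside its 593. KRT19 lies between KRT15 and KRT9 in the type I run that also holds KRT31 and KRT35.

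Other genes of the hair follicle and epidermis were taken from lists. Of 23 hair follicle genes, 17 were in the tables. None of those tested differed past the limma threshold between -4 wkpp and either group at 1 wkpp (15 tested against MNEB, 14 against SNEB), nor did any of 26 and 22 tested genes of the epidermis and cell junction list. Every -4 wkpp library lay above every later one for 0 of the 17 hair follicle genes and for 3 of the 35 genes of the epidermis list in the tables (KLK7, ITGA6 and LY6D), beside 2.81% of all genes. Of the 17, 15 had a log2 difference above 0 between -4 wkpp and SNEB 1 wkpp, with a median of 0.88 beside 0.03 over all genes, and 11 against MNEB 1 wkpp, with a median of 0.56 beside -0.14. HEPHL1 had 63, 19 and 40 exonic reads at -4 wkpp and 1, 0 and 1 at SNEB 1 wkpp, and GPRC5D had 59, 8 and 22, then 5, 5 and 1. Others such as DLX3, a homeobox factor of hair and epidermis (20, 54 and 8 exonic reads at -4 wkpp, 29, 32 and 16 at SNEB 1 wkpp), and LEF1, a Wnt effector (124, 49 and 42, then 96, 103 and 32), had reads in every library. HOXC13, a transcription factor that switches on hair keratins, had 6, 14 and 3 exonic reads at -4 wkpp, 0 in each SNEB 1 wkpp library, 2, 0 and 0 at SNEB 16 wkpp, 0, 2 and 0 at MNEB 1 wkpp and 1, 0 and 0 at MNEB 16 wkpp. FOXN1, which acts with it in the hair shaft, had 3, 6 and 4 reads at -4 wkpp and at most 2 in any later library. SELENBP1 was higher past the threshold at SNEB 16 wkpp than at MNEB 16 wkpp (log2 difference 2.25 ± 0.39, limma adjusted p = 0.00413 exonic), and had between 88 and 3516 reads in every library.

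Marker genes of the other cells a biopsy can hold moved as follows. All 9 epidermal keratinocyte markers were in the tables, and their summed level was 16.5 to 30.1 RPM at -4 wkpp, 6.46 to 8.20 at SNEB 1 wkpp, 13.9 to 31.3 at SNEB 16 wkpp, 7.43 to 56.7 at MNEB 1 wkpp and 20.3 to 35.9 at MNEB 16 wkpp. At SNEB 16 wkpp PERP gave 387, 160 and 127 of the 459, 199 and 168 reads of this sum, while TP63 had 2, 1 and 1, DSG1 7, 0 and 0 and DSG3 4, 0 and 0. DSG1 and DSG3, desmosomal cadherins of the epidermis, had 85, 26 and 41 and 9, 6 and 11 reads at -4 wkpp and 1 and 0 in all at SNEB 1 wkpp. At MNEB 1 wkpp, in libraries with fewer exonic reads, they had 1, 12 and 21 and 0, 7 and 4 reads. Of the melanocyte markers 5 of 7 were in the tables, with a summed level of 2.74 to 5.89 RPM at -4 wkpp and 2.06 to 33.3 later. Most of these reads were of PMEL, with 35, 37 and 27 at -4 wkpp, 50, 87 and 188 at SNEB 1 wkpp and 413 in SNEB 16 wkpp library 2. TYR and MLANA were at 0 in all SNEB 1 wkpp libraries and at 0 to 4 elsewhere. Of the sweat and sebaceous gland markers 4 of 7 were in the tables, with a summed level of 0.222 to 3.12 RPM at -4 wkpp and 0 to 3.45 later. The mesothelium markers (3 of 5 in the tables) and those of mammary or other simple epithelium (8 of 9) had 5.03 to 13.5 and 22.1 to 28.3 RPM at -4 wkpp and 6.43 to 24.5 and 3.90 to 49.0 later, so that both overlapped. Of the 7 hair shaft markers 4 were in the tables. Their summed level was 89.2 to 108 RPM at -4 wkpp, 168.5 to 244.9 at SNEB 1 wkpp and 47.85 to 62.47 at MNEB 1 wkpp. This sum was almost wholly SELENBP1, which had 1505, 1271 and 711 reads at -4 wkpp and 2486, 3304 and 1845 at SNEB 1 wkpp. The 5 adipocyte markers in the tables (of 7) summed to 5420 to 6554 RPM at -4 wkpp and 1203 to 12090 later. Of these 5, LEP (leptin) and CIDEC, a lipid droplet protein, were above all 12 later libraries in each -4 wkpp library, beside 2.81% of all genes, and both passed the threshold as higher at -4 wkpp than at MNEB 1 wkpp, beside 1.51%. Their log2 differences were 3.84 ± 0.37 (limma adjusted p = 0.00015 exonic, 0.00954 whole gene) and 2.37 ± 0.21 (limma adjusted p = 0.000111 and 0.00683). The other 3, FABP4, PLIN1 and LIPE, had fewer reads in every -4 wkpp library than in any SNEB 1 wkpp library. FABP4 had 30716, 38722 and 21059 reads at -4 wkpp and 84793, 67819 and 75060 at SNEB 1 wkpp, and the median log2 difference of the 5 was -0.59, with 2 above 0. The part of skin cells in the keratin reads was not tested.

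Among genes that the naming rule did not take, those most like KRT35 over the 15 libraries were SOST (Pearson r = 0.933 of log2 normalised values), LOC618455 (0.927, the hair keratin KRT33B), PCK1 (0.904), MID1IP1 (0.898) and ACACA (0.891), among 11036 genes. KRT35 was taken because it passed on exonic reads alone, as no keratin passed in both analyses. SOST encodes an inhibitor of Wnt signalling, PCK1 an enzyme of glyceroneogenesis, and ACACA the first enzyme of fatty acid synthesis, whose reads were 38299, 19387 and 19909 at -4 wkpp and 613 to 4181 later. The 15 points share groups, depth and size factors, and the values are a description.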

How the data were processed

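RNA of 15 subcutaneous fat libraries was sequenced by the study after ribosomal depletion with a stranded total RNA kit. Per the study's methods and the submitters' processing notes, bcl2fastq 2.15.0, cutadapt 1.3, TopHat2 (bosTau8, UCSC annotation) and htseq-count were used, and the authors ran DESeq2 on reads in exons and on reads in entire genes. The 6 deposited tables, 1 for each pair of groups that the study compared, hold the authors' mean of normalised counts over the 6 libraries of the pair. They also hold the authors' fold changes and p-values, which were not used. The deposited means carry 15 significant digits, each being a sum of whole counts over size factors, and whole reads per library were recovered from them for 13892 of 13896 genes (99.97%), agreeing with the tables to a relative difference of 5e-15. On simulated tables, built and solved with the same estimated size factors, the last step of the recovery was exact. The estimation of the size factors and the matching of exonic to whole gene libraries were not simulated. COL1A1, COL3A1, FBN1 and RN7SL1 were not recovered. Recovered libraries are known by group only, and were numbered by exonic total. As no column holds counts, no count model was used.

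Genes with a mean of at least 5 reads per library in the libraries compared were tested with limma 3.58.1 (voom weights and empirical Bayes, R 4.3.3), on exonic and on whole gene reads, with Benjamini-Hochberg adjustment over all genes. Calls needed an adjusted p below 0.01 in both with the same sign. With 3 libraries a group, an exact permutation test of 1 gene cannot go below p = 0.1. Normalised reads are reads over median-of-ratios size factors of the 15 libraries. A fold against a group at 0 was computed against 3 reads over the group. Intervals cover counting error only, at 95% (exact, conditional on the summed reads). Genes were named with values if called or with a mean of at least 10 exonic reads per library, and other genes named were picked after their values were seen or stand for their class. Reads shared between near-identical keratin paralogues may have been dropped or split by the counting, which makes levels of such copies uncertain. The genes and lists were chosen with earlier results of these data known. Alternatives covered the call rule, scaling, filter, weights, libraries in the fit and leaving out each library. Python 3.11.15, numpy 2.4.6, pandas 2.3.3 and scipy 1.17.1 were used.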

Additional observations from a re-analysis of the deposited data

How the results depend on the processing

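No paired analysis was possible because the recovered libraries carry no number of the labels and the labels do not link libraries to cows. Counts of keratins past the limma threshold were 0 in all comparisons. For -4 wkpp against MNEB 1 wkpp the count was 1 (KRT35) on exonic reads alone and 1 (KRT35) with all 15 libraries in one fit, and for -4 wkpp against SNEB 1 wkpp it was 1 (KRT35) on exonic reads alone and 6 with a trend in place of voom weights. Leaving out each library in turn gave 0 to 1 for SNEB 1 wkpp against MNEB 1 wkpp (KRT14, without MNEB 1 wkpp library 1) and 0 elsewhere. The share of all genes called in the KRT14 fit is not given here, so that count cannot be set against a background. The other 99 counts of keratins did not move. The number of genes with every -4 wkpp library above every later one was 11, and 24 without the 5 libraries with most genes detected. Scaled by library totals, KRT8 differed by -0.062 between -4 wkpp and SNEB 1 wkpp (log2), against 0.06. On leaving out single libraries the log2 difference from SNEB 1 wkpp ranged from -0.49 to 0.84 for KRT8, from -0.79 to 0.96 for KRT18 and from -0.22 to 0.68 for KRT80, and that from MNEB 1 wkpp from -0.36 to 1.40 for KRT18 and from -0.24 to 0.93 for KRT80. Over all genes, the number past the threshold for -4 wkpp against MNEB 1 wkpp was 166, and was 1702 on exonic reads alone, 1066 with all 15 libraries, 1029 at an adjusted p below 0.05, 314 scaled by totals, 67 without a filter and 1 to 199 on leaving out a library. For -4 wkpp against SNEB 1 wkpp it was 4, and 54, 22, 57, 0, 4 and 0 to 90. The causes were not tested. The MNEB libraries, with 2027323 to 7517203 exonic reads, limit what could be seen of low keratins there.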
